A study of Arabidopsis thaliana with 12 samples.

Results

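The comparison described here is between *phyB-77 bri1-5* double-mutant seedlings and *phyB-77* single-mutant seedlings of Arabidopsis, so that both groups lack functional phytochrome B and only the first also carries *bri1-5*. Its members were the 3 arrays labelled as the double mutant and the 3 arrays labelled as the *phyB-77* mutant, that is 6 of the 12 Affymetrix ATH1 arrays of the series, with all 22746 probe sets other than the array's own controls. The other 6 arrays, 3 of the *bri1-5* single mutant and 3 of the Ws-2 wild type, were used where the effect of *bri1-5* in the *phyB-77* background was set against its effect in the presence of the photoreceptor. The *phyB-77* allele, named *gul2-1* in the sample labels, was recovered in the Wassilewskija-2 (Ws-2) accession and is a lesion of the photoreceptor gene *PHYB*, and *bri1-5* is a weak allele of the brassinosteroid (BR) receptor gene *BRI1*. All 4 genotypes were sampled as whole seedlings, 7 days old and kept in continuous red light. Whole seedlings mix root and shoot, so fewer cells of a type and less RNA per cell cannot be told apart in these values. The labels call the 3 arrays of a genotype biological replicates without stating whether the plants were grown separately, and the p-values therefore measure the spread between these arrays.

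BRs are steroid hormones that are perceived at the plasma membrane by the receptor kinase BRI1, and the signal passes to the transcription factors BZR1 and BES1, which act on genes for growth and repress genes of BR synthesis. Plants with a weakened receptor are dwarfed and keep the synthesis genes more active, because this feedback is released. Phytochrome B is the main receptor for red light in light-grown seedlings. It restrains elongation by driving the breakdown of the PIF transcription factors, which act on many of the same growth genes as BZR1, and seedlings without it grow tall in red light.

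Values are the deposited log2 signals from robust multi-array averaging (RMA), and a difference of 1 on this scale is a 2-fold change. The limma package was fitted to all 12 arrays. A change was called where the p-value was under 0.01 after Benjamini-Hochberg adjustment across the 22746 probe sets, whatever the size of the change. In *phyB-77 bri1-5* against *phyB-77*, 3628 probe sets were called, which is 16.0% of those tested. Of these, 1465 were higher in the double mutant and 2163 were lower. The changes were mostly small, with a median log2 fold change of 0.59 among the higher and -0.55 among the lower calls, and 423 probe sets (1.86%) changed by more than 2-fold, of which 194 were higher (0.853%) and 229 lower (1.01%). The log2 fold changes of called probe sets reached 3.12 and -3.10. The division into higher and lower calls depended on the scaling, since the array medians were 5.87 to 5.90 in the double mutant and 5.92 to 5.99 in *phyB-77*. With each array centred on its median, 1906 were higher and 1629 lower, and after quantile normalization these were 1700 and 1754. The calls made with lower values were also the most dependent on 1 array, and 1407 were lower without *phyB-77 bri1-5* replicate 3. The 3 double-mutant arrays correlated at 0.998 to 0.9981 with each other, the 3 *phyB-77* arrays at 0.9949 to 0.9972, and the groups with each other at 0.9853 to 0.988. On 42.3% of all probe sets the 2 groups did not overlap. Genes named below for the largest changes were taken only from called probe sets without overlap.

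**Figure D1:**
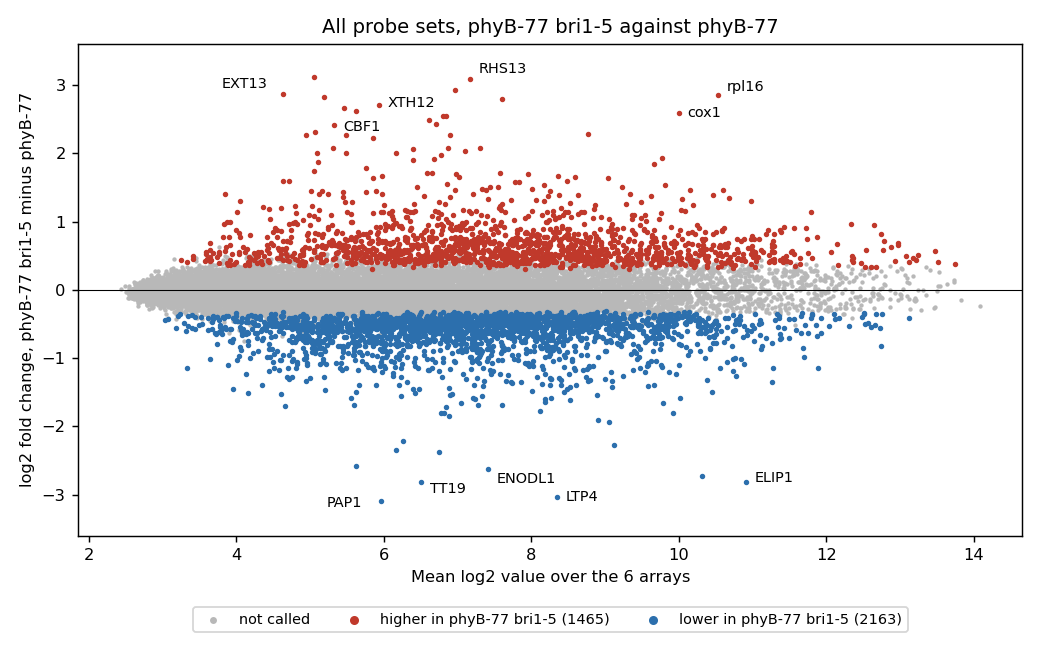
Each point is 1 of the 22746 probe sets, with the mean log2 value of the 6 arrays on the x axis and the log2 fold change, *phyB-77 bri1-5* minus *phyB-77*, on the y axis. The 1465 probe sets called higher are red and the 2163 called lower are blue, and the labelled genes include *RHS13* at 3.09 and *PAP1* at -3.10.

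The probe sets had unequal chances of carrying a gene name. The platform annotation named a single gene for 13513 probe sets, of which 13.7% were called here (6.32% higher and 7.41% lower). A further 1299 were named only through the tables of the study, which hold probe sets that differed between these genotypes, and 45.0% of those were called (16.0% higher and 28.9% lower). The members of most gene lists below are of the second kind, so their counts are to be read against 45.0% and not against 16.0%. Because those tables were drawn up on the same arrays, the counts are no separate evidence of a direction. For *bri1-5* against Ws-2 and for the interaction, the share called among probe sets named only through the tables was not determined. The shares of all probe sets given for these are therefore not a like comparison for such lists. The number named by the annotation is given beside them. A listed gene counts as measured only where a probe set carries its name, so the counts do not cover whole pathways. Measured were 4 of 12 listed genes of BR synthesis, 10 of 19 flavonoid genes, 8 of 12 root hair markers and 4 of 24 cell cycle genes. The probe sets for *PHYB* and *BRI1* themselves were among 7431 that carried no name in these sources (14.7% called, 4.54% higher and 10.1% lower), and both genes are not analysed here.

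**Figure D2:**
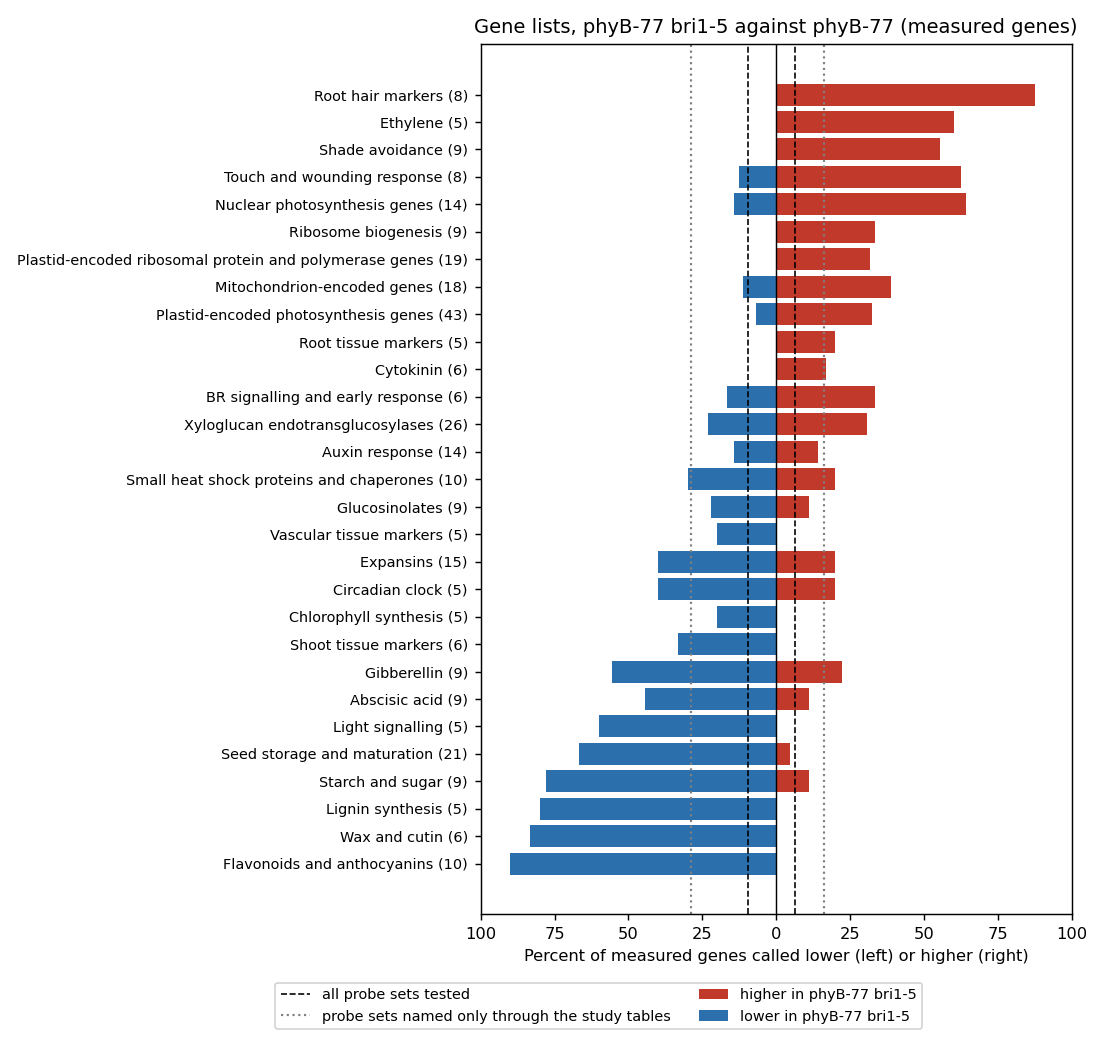
For each gene list with at least 5 measured genes, the bars give the percent of its measured genes called lower (blue, to the left) or higher (red, to the right) in *phyB-77 bri1-5* against *phyB-77*, with the number of measured genes in brackets. Dashed lines mark the share of all probe sets (9.51% lower and 6.44% higher), and dotted lines mark the share of probe sets named only through the study's tables (28.9% lower and 16.0% higher), so that root hair markers extend farthest to the right and flavonoid genes farthest to the left.

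Of 4 measured genes of BR synthesis, *DWF4* and *CYP85A2* were higher in the double mutant. Thus 50.0% of the list was called, against the 45.0% called in either direction given above (16.0% higher). *DWF4* (*At3g50660*), which encodes the steroid 22-hydroxylase that limits BR synthesis, had values of 8.63, 8.71 and 8.74 in *phyB-77 bri1-5* and 7.94, 7.67 and 7.81 in *phyB-77*. All double-mutant arrays lay above all *phyB-77* arrays, and the log2 fold change was 0.89 (standard error 0.11, adjusted p = 7.5e-06). In the presence of the photoreceptor *bri1-5* raised *DWF4* by 0.97, and the interaction, that is the effect of *bri1-5* in *phyB-77* minus its effect in Ws-2, was -0.08 (standard error 0.15, adjusted p = 0.78). *CYP85A2* (*At3g30180*), the enzyme of the last step to brassinolide, had values of 8.41, 8.46 and 8.32 in the double mutant and 8.09, 7.60 and 7.99 in *phyB-77*. Its log2 fold change of 0.50 (adjusted p = 0.0058) was much smaller than the 2.23 for *bri1-5* against Ws-2, and the interaction was -1.73 (standard error 0.18, adjusted p = 1.8e-06). Leaving out any 1 of the double-mutant arrays, or *phyB-77* replicate 2 or 3, ended the call of *CYP85A2* (0.36 to 0.55, adjusted p of 0.011 to 0.04). *CPD* (*At5g05690*), the steroid C-3 oxidase, differed by 0.34 (adjusted p = 0.012) and was not called. It was called with median-centred arrays (0.40, adjusted p = 0.003), with a variance trend and robust estimation (0.004), with array weights (0.0018), with only the 6 arrays compared (0.0063), without the dimmest 40% of probe sets (0.0091) and without *bri1-5* replicate 1 or 2 (0.0085 and 0.0081). For *bri1-5* against Ws-2 *CPD* differed by 1.00, and its interaction was -0.66 (adjusted p = 0.0012). None of the 4 was lower or named by the annotation, and all 4 were higher in *bri1-5* than in Ws-2, where 19.1% of all probe sets were called (10.5% higher and 8.61% lower). The count of 2 became 1 without each of the 5 arrays named for *CYP85A2*.

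Of the early BR-response regulators, *BEE3* and *PRE3* were higher. *BEE3* (*At1g73830*), a basic helix-loop-helix factor first described as an early BR-induced gene, had values of 7.10, 7.20 and 7.29 in the double mutant and 5.60, 5.75 and 5.76 in *phyB-77*. *PRE3* (*At1g74500*), a small helix-loop-helix protein that promotes cell elongation, had 6.69, 6.66 and 6.69 in the double mutant and 5.40, 5.14 and 5.27 in *phyB-77*. In both genes the *phyB-77* arrays were the lowest of the 12, and the log2 fold changes were 1.5 (adjusted p = 8.8e-09) for *BEE3* and 1.41 (adjusted p = 2.3e-08) for *PRE3*. *BRL1* (*At1g55610*), a receptor of the BRI1 family, was lower by -0.40 (adjusted p = 0.0065). It was not called with median-centred arrays (-0.33, adjusted p = 0.023) or with quantile normalization. Leaving out *phyB-77 bri1-5* replicate 1 or 2, or *phyB-77* replicate 2 or 3, also ended the call, with adjusted p of 0.017 to 0.041. The list of BR signalling and response held 6 measured genes, of which 2 were higher, 1 lower and 3 not called, so that 50.0% were called, against 45.0%. Its members lay at a median log2 fold change of 0.18, against -0.04 over all probe sets.

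The light-signalling factors *HY5* and *HYH*, which promote seedling development in light, were lower in the double mutant. *HY5* (*At5g11260*) had values of 6.93, 6.80 and 6.93 in *phyB-77 bri1-5* and 7.66, 7.52 and 7.58 in *phyB-77*. *HYH* (*At3g17609*) had 6.35, 6.36 and 6.21 in the double mutant and 7.07, 7.06 and 7.02 in *phyB-77*. The groups did not overlap in either gene, and the log2 fold changes were -0.70 (adjusted p = 4.0e-05) and -0.75 (adjusted p = 1.7e-04). *PIF1* (*At2g20180*), a phytochrome-interacting factor that represses seed germination and greening in the dark, was lower by -0.58 (adjusted p = 8.4e-04), whereas *bri1-5* raised it by 1.00 in the presence of the photoreceptor, and the interaction was -1.58 (adjusted p = 1.5e-06). Of 5 measured genes of light signalling, 3 were lower and none was higher, and the annotation names 1 of them, *HYH*. Thus 60.0% were called, against 45.0% (28.9% lower). The other 2, *PIF3* (0.08, adjusted p = 0.73) and *PIF5* (0.14, 0.43), were not called, so *PIF1* does not stand for the PIF genes.

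Shade-avoidance genes were higher in the double mutant although both groups lack the photoreceptor. *PAR1* (*At2g42870*), a helix-loop-helix protein that limits the shade response, had values of 9.10, 8.87 and 8.98 in *phyB-77 bri1-5* and 7.45, 7.62 and 7.57 in *phyB-77*. *HFR1* (*At1g02340*), which sequesters PIF proteins, had 8.94, 9.12 and 9.15 in the double mutant and 8.19, 7.87 and 7.94 in *phyB-77*. Every double-mutant array exceeded every *phyB-77* array in both genes. The log2 fold changes were 1.44 for *PAR1* (adjusted p = 8.2e-09) and 1.07 for *HFR1* (adjusted p = 1.1e-06), and for *bri1-5* against Ws-2 they were 1.22 and 0.95. The interactions were 0.22 (standard error 0.14, adjusted p = 0.31) and 0.12 (standard error 0.16, adjusted p = 0.65). *IAA29* (*At4g32280*), an auxin-response repressor induced by shade, rose by 1.06 (adjusted p = 1.1e-05). Of 9 measured shade genes, 5 were higher and none was lower, with a median of 0.50, and of the 2 that the annotation names 1 was higher. For *bri1-5* against Ws-2, 8 of the 9 were higher and none was lower, with a median of 1.22, where 10.5% of all probe sets were higher. The interaction was called for 4 of the 9, each negative, against 8.93% of all probe sets. *PAR1* and *HFR1* are not among these 4. Since 7 of the 9 are named only through the study's tables, neither share of all probe sets is a like comparison for them.

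Most measured genes of auxin response were not called, and those called went in both directions. The most strongly raised probe set of the whole comparison belongs to *At2g37030*, which the study's table describes as auxin-induced and which RefSeq places in the SAUR family of short-lived auxin-response genes. Its values were 6.54, 6.64 and 6.69 in *phyB-77 bri1-5* and 3.05, 3.92 and 3.54 in *phyB-77*, a log2 fold change of 3.12 (standard error 0.19, adjusted p = 1.1e-09). In *phyB-77* it lay near the bottom of the scale, where 2.36 was the lowest value on any array. The *phyB-77* arrays were far below the other 9, since *bri1-5* averaged 7.25 and Ws-2 5.70. *GH3.3* (*At2g23170*), an auxin-conjugating enzyme, rose by 0.73 (adjusted p = 3.7e-05), and *SAUR9* (*At4g36110*) fell by 1.07 on the log2 scale (adjusted p = 4.3e-05). Of 14 measured genes of auxin response, 2 were higher, 2 lower and 10 not called, and 4 were lower without *bri1-5* replicate 2 or 3. Thus 28.6% were called, against 45.0% of probe sets named only through the tables and 13.7% of those named by the annotation. The annotation names 7 of the 14. For *bri1-5* against Ws-2, 9 of the 14 were higher and 3 lower, and 8 of the 14 were called in the interaction, where 13.8% of all probe sets were called (4.82% positive and 8.93% negative). Among 15 measured SAUR genes, a list drawn up after the values were seen, 4 were higher and 5 lower. *ACS11* (*At4g08040*), an enzyme of ethylene synthesis, had values of 4.63, 4.83 and 4.63 in the double mutant and 3.07, 3.55 and 3.56 in *phyB-77*. It rose by 1.30 (adjusted p = 2.4e-07), and of 5 measured ethylene genes 3 were higher and none was lower.

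The most uniform change among the higher calls was in root hair genes, which were low in *phyB-77* and much higher in the double mutant. Root hairs are tubular outgrowths of epidermal root cells, and their tip growth uses dedicated extensins, proline-rich proteins, peroxidases and expansins of the cell wall. *RHS13* (*At4g02270*), a root-hair-specific wall protein, had values of 8.65, 8.70 and 8.82 in *phyB-77 bri1-5* and 5.74, 5.44 and 5.71 in *phyB-77*. The log2 fold change was 3.09 (standard error 0.10, adjusted p = 1.0e-12), an 8.54-fold difference. *EXT13* (*At5g35190*), an extensin, had 6.19, 6.07 and 5.97 in the double mutant and 3.48, 2.96 and 3.16 in *phyB-77*, where it lay near the bottom of the scale (2.36 was the lowest value on any array). It rose by 2.87 (adjusted p = 5.4e-10). *PRP3* (*At3g62680*), a proline-rich protein of root hairs, had 8.07, 8.06 and 8.21 in the double mutant and 5.69, 5.66 and 5.36 in *phyB-77*. In these 3 genes the gap between the groups was several times the spread within either, and the log2 fold change of *PRP3* was 2.54 (adjusted p = 1.1e-11).

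*PRX73* (*At5g67400*), a class III peroxidase, had values of 8.29, 8.43 and 8.33 in the double mutant and 6.25, 6.26 and 6.31 in *phyB-77*, a rise of 2.07 (adjusted p = 1.1e-11). *PRX2* (*At1g05250*), another peroxidase of the root, had 8.26, 8.07 and 7.90 in the double mutant and 5.87, 5.51 and 5.23 in *phyB-77*, a rise of 2.54 (adjusted p = 2.3e-10), on a probe set that the array design marks as shared by similar transcripts. Neither gene had overlapping groups. Further down the list, *AGP3* (*At4g40090*), an arabinogalactan peptide, rose by 2.06 (adjusted p = 5.6e-10), *PRP1* (*At1g54970*) by 1.74 (adjusted p = 9.1e-10), *EXPA18* (*At1g62980*) by 1.43 (adjusted p = 1.5e-07) and *EXPA7* (*At1g12560*) by 1.03 (adjusted p = 9.9e-06). *COW1* (*At4g34580*), a lipid-transfer regulator of tip growth, rose by 0.56 (adjusted p = 0.0016). It was not called when *phyB-77 bri1-5* replicate 2 was left out (adjusted p = 0.015), nor when *phyB-77* replicate 2 or 3 was (0.011 each). *RHD2* (*At5g51060*), the NADPH oxidase of growing tips, differed by 0.30 (adjusted p = 0.03) and was not called, although its groups did not overlap, which was also true of 42.3% of all probe sets. With median-centred arrays it was called (0.37, adjusted p = 0.0092). Of 8 measured root hair markers 7 were thus higher and none was lower, with a median of 1.59, and both that the annotation names, *EXPA7* and *EXPA18*, were higher. *EXPA7*, *PRP1*, *COW1* and *RHD2* are named here after their values were seen, to complete the list. *ADF11* (*At1g01750*), an actin-depolymerizing factor, followed the same pattern with 6.70, 6.94 and 6.73 in the double mutant and 4.15, 4.18 and 4.05 in *phyB-77*, a rise of 2.66 (adjusted p = 3.4e-12).

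Across the 4 genotypes the root hair markers were lowest in *phyB-77* and highest in *bri1-5*. The mean log2 value over the 8 genes was 6.55 to 6.60 on the double-mutant arrays, 5.05 to 5.17 on the *phyB-77* arrays, 7.49 to 7.52 on the *bri1-5* arrays and 6.57 to 6.61 on the Ws-2 arrays. The double mutant and Ws-2 thus overlapped in this mean, and the difference between them was 0.36 for *RHS13* (adjusted p = 0.012), 0.18 for *EXT13* (0.49), 0.34 for *PRP3* (0.025) and 0.19 for *PRX73* (0.13). In Ws-2 the *bri1-5* mutation raised all 8 genes, by a median of 0.85. The rise in the *phyB-77* background was larger by the interaction test for 4 of them, by 1.53 for *PRP3* (adjusted p = 9.4e-07), 1.37 for *AGP3* (1.0e-05), 0.86 for *PRP1* (2.8e-04) and 0.82 for *EXPA18* (0.0028). For *RHS13* the interaction was 1.80 (8.5e-08), for *EXT13* 1.71 (3.1e-05) and for *ADF11* 1.62 (4.0e-07). Of 5 measured root tissue markers only *PRX2* was called, and the endodermal *CASP1* (-0.09) and the abundant *PYK10* (-0.15) were among the other 4. The mean of the 5 was lowest in *phyB-77* and highest in *bri1-5*, with 8.26 to 8.33 on the double-mutant arrays, 7.74 to 7.94 in *phyB-77*, 8.81 to 9.09 in *bri1-5* and 8.51 to 8.53 in Ws-2. Between the double mutant and *phyB-77* the difference in this mean rested on *PRX2*, at 2.54. The median log2 fold change of the 5 was -0.09 and the lowest was -0.18.

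**Figure D3:**
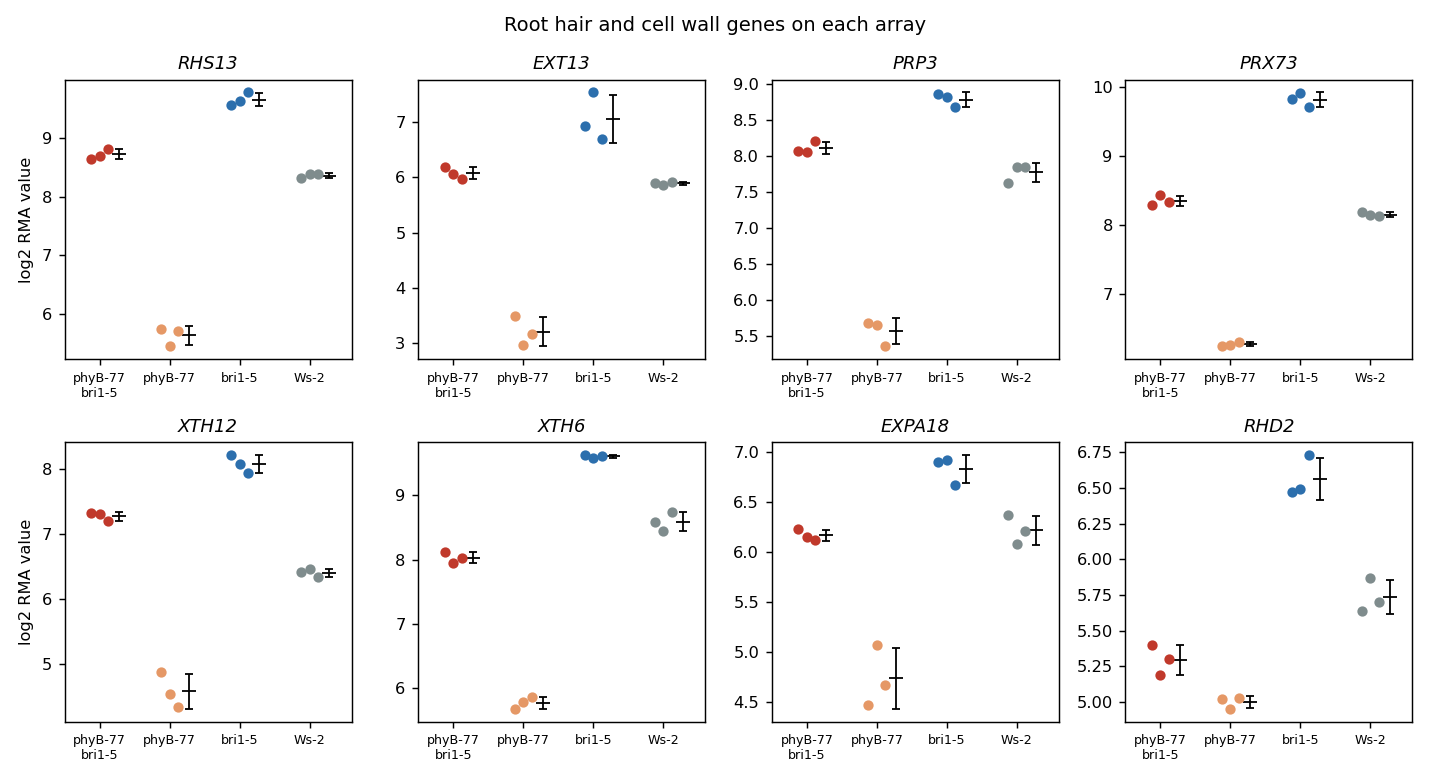
Log2 RMA values of 8 genes on each of the 12 arrays, with 3 arrays per genotype as points and the mean with its standard deviation as a black bar, and a separate y axis for each gene. In *RHS13*, *EXT13*, *PRP3*, *PRX73*, *XTH12*, *XTH6* and *EXPA18* the 3 *phyB-77* arrays are the lowest of the 12, whereas *RHD2* differs little between the double mutant and *phyB-77* (0.30, adjusted p = 0.03).

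Enzymes that loosen or remodel the wall split into raised and lowered members. Xyloglucan endotransglucosylases (XTHs) cut and rejoin the hemicellulose that tethers cellulose fibrils. *XTH12* (*At5g57530*) had values of 7.33, 7.31 and 7.20 in the double mutant and 4.88, 4.54 and 4.34 in *phyB-77*. *XTH6* (*At5g65730*) had 8.11, 7.95 and 8.03 in the double mutant and 5.68, 5.79 and 5.86 in *phyB-77*. Both were well separated between the groups, *XTH12* rose by 2.70 (adjusted p = 1.5e-11), *XTH6* by 2.26 (1.1e-11), and *XTH13* (*At5g57540*), which lies 1 coding gene away from *XTH12* in the RefSeq order and is similar to it in sequence, rose by 2.26 (1.2e-11). Of 26 measured XTH genes, 8 were higher, 6 lower and 12 not called, and of the 10 that the annotation names 2 were higher and 2 lower. Expansins, which loosen walls without cutting polymers, leaned the other way. *EXPA4* (*At2g39700*) had 8.14, 8.07 and 7.92 in the double mutant and 9.10, 9.14 and 8.94 in *phyB-77*, a fall of -1.02 (adjusted p = 2.4e-07), and *EXPB3* (*At4g28250*) was lower by -0.93 (5.1e-06). Of 15 measured expansins 3 were higher and 6 lower, and of the 11 named by the annotation 2 were higher and 5 lower. The 6 became 3 without *phyB-77 bri1-5* replicate 2 or 3.

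Other large changes concerned single genes of the cell surface and of redox metabolism. *ENODL1* (*At5g53870*), an early nodulin-like protein of the cell surface, had values of 6.07, 6.13 and 6.09 in *phyB-77 bri1-5* and 8.94, 8.47 and 8.75 in *phyB-77*. The log2 fold change was -2.62 (adjusted p = 2.1e-09), against -3.41 for *bri1-5* in the presence of the photoreceptor, and the interaction of 0.79 missed the threshold (adjusted p = 0.021). *At5g18600*, annotated as a glutaredoxin, had 8.37, 8.49 and 8.42 in the double mutant and 5.52, 5.51 and 5.49 in *phyB-77*. It rose by 2.92 (adjusted p = 3.4e-12) and was 0.90 above Ws-2 in the double mutant (5.6e-06). *At1g14210*, described as a ribonuclease, had 5.65, 5.45 and 5.60 in the double mutant and 7.99, 8.01 and 7.82 in *phyB-77*. It was lower in both backgrounds, by -2.38 in *phyB-77* and -2.34 in Ws-2 (interaction -0.04, standard error 0.16, adjusted p = 0.91).

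The largest and most uniform decrease was in the flavonoid and anthocyanin pathway, which makes the protective pigments of seedlings. *PAP1* (*At1g56650*), the MYB factor that switches on anthocyanin synthesis, had values of 4.31, 4.44 and 4.50 in *phyB-77 bri1-5* and 7.33, 7.82 and 7.39 in *phyB-77*. Its log2 fold change was -3.10 (standard error 0.12, adjusted p = 3.4e-12), the largest fall among all probe sets. *TT19* (*At5g17220*), a glutathione transferase that carries anthocyanins to the vacuole, had 4.95, 5.22 and 5.12 in the double mutant and 8.01, 7.95 and 7.78 in *phyB-77*. *F3H* (*At3g51240*), flavanone 3-hydroxylase, had 8.04, 8.03 and 7.88 in the double mutant and 10.36, 10.15 and 10.27 in *phyB-77*. *DFR* (*At5g42800*), dihydroflavonol reductase, had 5.31, 5.02 and 5.11 in the double mutant and 7.38, 7.50 and 7.21 in *phyB-77*. No double-mutant array reached the lowest *phyB-77* array in any of these genes, which was a condition for naming them among the largest changes. For *TT19*, *F3H* and *DFR* the log2 fold changes were -2.82, -2.27 and -2.22 (adjusted p of 1.2e-12, 1.2e-11 and 2.1e-10). *At4g14090*, annotated as a glycosyltransferase, fell by 2.35 on the log2 scale (adjusted p = 1.4e-11). Of 10 measured flavonoid genes 9 were lower and none was higher, with a median of -1.77. The annotation names 3 of the 10, and 2 of these were lower.

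The *bri1-5* mutation alone lowered *PAP1* by -0.92 relative to Ws-2 (adjusted p = 1.0e-05). The differences of *TT19* (-0.30, adjusted p = 0.025), *F3H* (0.08, 0.62) and *DFR* (-0.14, 0.44) missed the threshold in that comparison, and 8 of the 10 flavonoid genes were called in the interaction. The double mutant lay below Ws-2 as well as below *phyB-77* in *TT19* (-0.97, adjusted p = 4.1e-07), *F3H* (-0.68, 3.4e-05) and *DFR* (-0.95, 6.3e-06), but not detectably in *PAP1* (-0.26, 0.12). The comparison with Ws-2 uses the same double-mutant arrays. The early light-induced proteins, which bind pigments under strong light, were lowered as well, at far higher signals. *ELIP1* (*At3g22840*) had values of 9.48, 9.47 and 9.55 in the double mutant and 12.30, 12.36 and 12.27 in *phyB-77*. *ELIP2* (*At4g14690*) had 8.91, 8.99 and 8.95 in the double mutant and 11.71, 11.67 and 11.63 in *phyB-77*. The log2 fold changes were -2.81 (adjusted p = 2.7e-11) and -2.72 (1.1e-11), yet the double mutant remained above Ws-2 by 1.81 (3.5e-09) and 2.12 (7.5e-11).

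**Figure D4:**
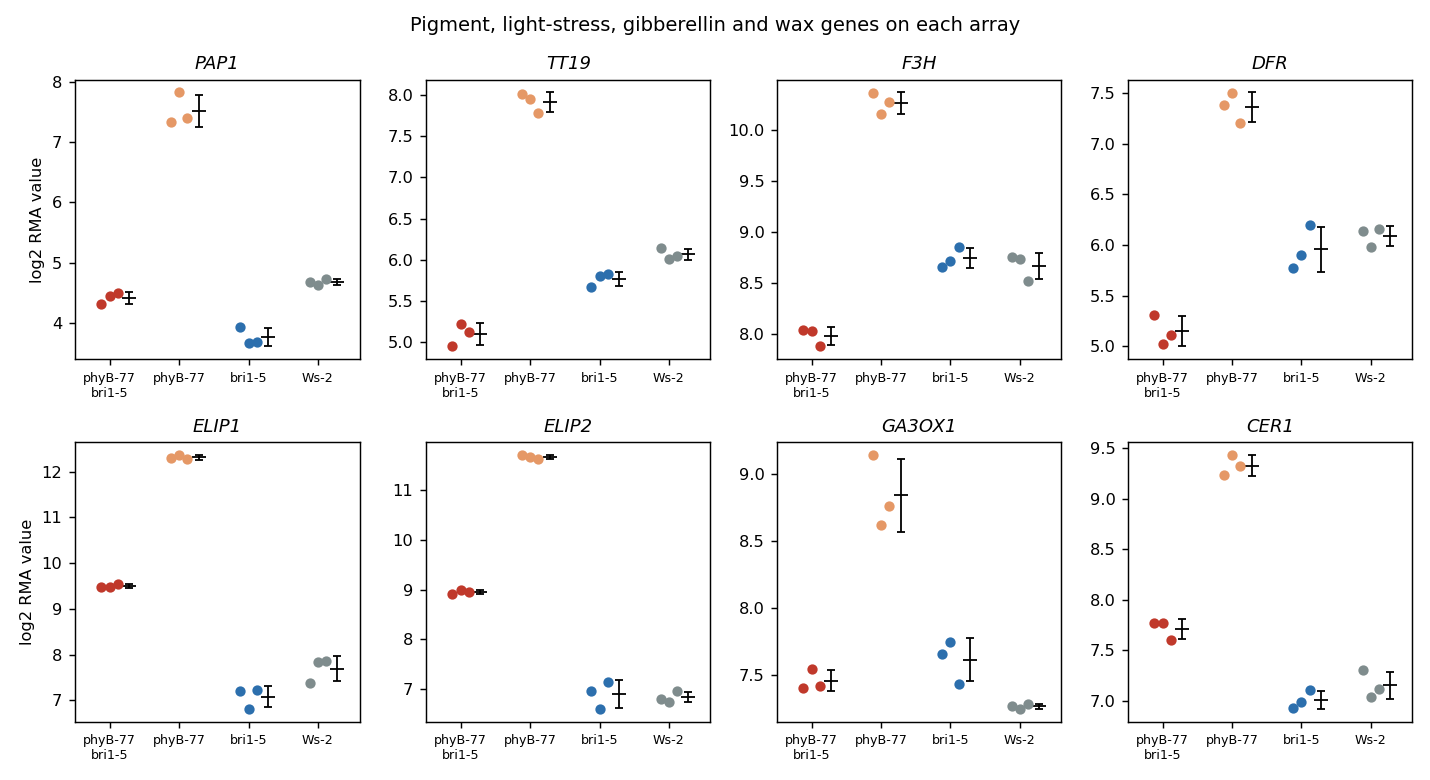
Log2 RMA values of 8 genes that were lower in *phyB-77 bri1-5* than in *phyB-77*, drawn as 3 arrays per genotype with the mean and its standard deviation as a black bar, each gene on its own y axis. The *phyB-77* arrays are the highest of the 12 in every panel, and in *ELIP1* and *ELIP2* the double mutant lies between *phyB-77* and both genotypes with the photoreceptor.

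Genes of the photosynthetic apparatus moved against the early light-induced proteins. Of 14 measured nuclear genes of this list 9 were higher, by 0.41 to 0.91, 2 were lower, namely *ELIP1* and *ELIP2*, and 3 were not called. *PSAN* (*At5g64040*), a subunit of photosystem I, had values of 12.14, 12.21 and 12.22 in the double mutant and 11.10, 11.39 and 11.33 in *phyB-77*, a rise of 0.91 (adjusted p = 1.4e-06) that brought it within 0.25 of Ws-2 (-0.25, adjusted p = 0.077). The annotation names 4 of the 14 genes, and all 4 were higher, against 6.32% of all probe sets so named. For *bri1-5* against Ws-2 none of the 14 was higher and 1 was lower. With a criterion of more than 1.5-fold, 3 of the 9 remained. *PORA* (*At5g54190*), the protochlorophyllide reductase of dark-grown seedlings, had 10.08, 10.14 and 10.16 in the double mutant and 10.81, 10.68 and 10.90 in *phyB-77*, a fall of -0.67 (8.3e-05), and stayed 3.93 above Ws-2 in the double mutant (5.2e-15). *GI* (*At1g22770*), a clock component, fell by 1.42 on the log2 scale (2.7e-09).

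Several transcripts of the organelle genomes were much higher in the double mutant. *rpl16*, a ribosomal protein gene of the plastid, had values of 11.94, 11.87 and 12.07 in *phyB-77 bri1-5* and 9.09, 8.94 and 9.26 in *phyB-77*. *rpl14*, from the same gene cluster, had 9.97, 9.70 and 10.06 in the double mutant and 7.34, 7.79 and 7.77 in *phyB-77*. *cox1*, a mitochondrial gene for a subunit of cytochrome oxidase, had 11.47, 11.20 and 11.21 in the double mutant and 8.97, 8.46 and 8.68 in *phyB-77*. The groups were widely separated, and the log2 fold changes were 2.86, 2.28 and 2.59 (adjusted p of 3.4e-12, 2.6e-09 and 2.6e-10). Of 43 plastid genes for photosynthesis, all named by the annotation, 14 were higher and 3 lower. Thus 39.5% were called, against 13.7% of probe sets so named (6.32% higher and 7.41% lower). The raised genes *ndhJ* (1.5, adjusted p = 1.0e-08), *atpH* (1.46, 2.3e-08) and *psbC* (1.30, 2.9e-08) stood beside *psaA*, which was lower by -1.41 (4.4e-07) and is named here after its values were seen. Of 19 plastid genes for ribosomal proteins and polymerase, also all named by the annotation, 6 were higher and none was lower (31.6% called). Of 18 mitochondrial genes, 16 of them named by the annotation, 7 were higher and 2 lower (50.0% called). In the mitochondrial list 1 lower call remained without *phyB-77 bri1-5* replicate 1, 2 or 3 or *phyB-77* replicate 1 or 3. There 3 were lower without *bri1-5* replicate 1. The *bri1-5* mutation raised these transcripts in Ws-2 as well, by 4.02 for *rpl16*, 3.20 for *rpl14* and 3.02 for *cox1*. The array's control probe set for 25S ribosomal RNA had values of 6.96, 6.55 and 7.07 in the double mutant and 6.17, 5.98 and 6.41 in *phyB-77*, and of 7.5 to 8.14 in *bri1-5* and 5.87 to 6.06 in Ws-2. That for 5S ribosomal RNA ran the other way, with 6.02, 5.54 and 5.85 in the double mutant and 6.45, 5.94 and 6.31 in *phyB-77*, and with 6.34 to 6.58 in *bri1-5* and 6.34 to 6.72 in Ws-2. The actin controls differed between the transcript ends, the 3′ value exceeding the 5′ value by 1.48, 1.71 and 1.72 in the double mutant and by 1.53, 1.39 and 1.31 in *phyB-77*. For the GAPDH controls this excess was 0.21, 0.21 and 0.14 in the double mutant and 0.32, 0.06 and 0.06 in *phyB-77*, and for the ubiquitin controls it was -0.03, -0.04 and 0.01 in the double mutant and -0.16, -0.12 and -0.28 in *phyB-77*. The part of RNA composition in the organelle values was not tested.

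Gibberellin genes were mostly lower. *GA3OX1* (*At1g15550*), which makes the active hormone, had values of 7.41, 7.55 and 7.42 in *phyB-77 bri1-5* and 9.14, 8.62 and 8.76 in *phyB-77*. *GA2OX1* (*At1g78440*), which inactivates it, had 3.55, 3.52 and 3.89 in the double mutant and 5.17, 5.03 and 4.96 in *phyB-77*. *GA3OX1*, the only measured gene of synthesis, and *GA2OX1* thus fell together, by -1.38 (adjusted p = 9.1e-08) and -1.40 (2.4e-08). *GA2OX2* (*At1g30040*), also of inactivation, fell by 0.96 on the log2 scale (6.9e-07). The double mutant did not differ detectably from Ws-2 in *GA3OX1* (0.19, adjusted p = 0.3). Of 9 measured gibberellin genes 5 were lower and 2 higher, with a median of -0.57, and the annotation names 3, of which 1 was lower. Thus 77.8% were called, against 45.0% (28.9% lower and 16.0% higher). The 2 higher genes were *GASA4* (0.41, adjusted p = 0.0012) and *GASA1* (0.41, 0.0049). Only 1 stayed higher without any one of the 3 double-mutant arrays or without *phyB-77* replicate 2 or 3.

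Of 9 measured genes of the abscisic acid list, none named by the annotation, 4 were lower and 1 higher. *RD20* (*At2g33380*), a caleosin of drought-stressed leaves, had values of 7.86, 8.03 and 7.96 in the double mutant and 10.02, 9.62 and 9.95 in *phyB-77*, a fall of -1.91 (adjusted p = 2.1e-09). *RD20* is not among those 9, and the lower members named here are *RD22*, *RD29A* and *RD29B*. *RD22* (*At5g25610*) fell by 1.15 on the log2 scale (3.3e-08), *RD29B* (*At5g52300*) by 1.04 (3.1e-07) and its neighbour *RD29A* (*At5g52310*) by 0.95 (7.3e-07). The 1 higher gene was not called when *phyB-77 bri1-5* replicate 2 or *phyB-77* replicate 3 was left out. Transcripts of seed storage and maturation, which persist in seedlings of both groups, were slightly lower in the double mutant. *SESA3* (*At4g27160*), a 2S albumin, had 6.96, 7.12 and 7.01 in the double mutant and 8.02, 8.09 and 8.08 in *phyB-77*, a fall of -1.03 (1.6e-06), and the double mutant still exceeded Ws-2 by 2.19 (2.8e-11). *SESA1* (*At4g27140*) was lower by -1.18 (4.5e-07) and *M17* (*At2g41260*), a late embryogenesis protein, by -0.80 (1.9e-05). The interactions of these 3 genes were -0.16, 0.00 and 0.00 (adjusted p of 0.56 to 1). Of 21 measured seed genes 14 were lower and 1 higher, with a median of -0.52, and of the 3 named by the annotation 2 were lower. Thus 71.4% were called, against 45.0%. In *bri1-5* against Ws-2, 5 of the 21 were higher and 5 lower, with a median of -0.04. The interaction was called for 7 of the 21, against 13.8% of all probe sets, so the 3 genes above do not stand for the whole list. The count of 14 was 8 without *phyB-77 bri1-5* replicate 3. It was 9 when *phyB-77 bri1-5* replicate 2 or *phyB-77* replicate 1 was left out, and the 1 higher gene was not called without *phyB-77 bri1-5* replicate 1. *TIP3;2* (*At1g17810*), a water channel of storage vacuoles, differed by -0.46 (adjusted p = 0.0068). It was not called with median-centred (-0.39, adjusted p = 0.017) or quantile-normalized arrays (-0.42, 0.013), nor without *phyB-77 bri1-5* replicate 2 or 3 or any one of the *phyB-77* arrays (-0.40 to -0.50, adjusted p of 0.011 to 0.041).

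Several lipid genes of the plant surface fell in the double mutant. *LTP4* (*At5g59310*), a lipid transfer protein, had values of 6.79, 6.96 and 6.75 in *phyB-77 bri1-5* and 9.70, 9.86 and 10.06 in *phyB-77*. The log2 fold change was -3.04 (standard error 0.10, adjusted p = 1.2e-12), and the double mutant was also below Ws-2, by -1.77 (2.3e-10). *KCS2* (*At1g04220*), which elongates very long chain fatty acids, had 8.11, 8.07 and 8.10 in the double mutant and 10.10, 9.94 and 10.07 in *phyB-77*, a fall of -1.94 (1.9e-10). *CER1* (*At1g02205*), an enzyme of wax alkane synthesis, had 7.77, 7.77 and 7.60 in the double mutant and 9.23, 9.43 and 9.32 in *phyB-77*, a fall of -1.61 (1.1e-09). None of these genes overlapped between the groups, which for *LTP4* and *KCS2* was a condition for naming them. *CER6* (*At1g68530*) and *ATT1* (*At4g00360*), of wax and of cutin synthesis, fell by 1.00 (2.8e-07) and by 0.87 (4.3e-07) on the log2 scale, with interactions of -0.01 and 0.09 (adjusted p of 0.97 and 0.64). *CYP96A15* (*At1g57750*), the wax alkane hydroxylase, had 4.47, 4.78 and 4.61 in the double mutant and 5.63, 5.47 and 5.49 in *phyB-77*. Its fall of -0.91 (4.9e-06) was smaller than the -3.35 for *bri1-5* against Ws-2 (interaction 2.43, adjusted p = 7.4e-09). Of 6 measured wax and cutin genes, none named by the annotation, 5 were lower and none was higher. *LTP4* and *KCS2* are not on that list. Of 3 measured lipid transfer proteins, a list drawn up after the values were seen, *LTP4* was lower, *LTP6* was higher by 1.28 (adjusted p = 4.7e-08) and *LTP2* was not called.

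Genes of starch breakdown and sugar transport were lower. *BAM1* (*At3g23920*), a beta-amylase of the plastid, had values of 8.93, 8.98 and 8.98 in the double mutant and 10.46, 10.33 and 10.29 in *phyB-77*, a fall of -1.40 (adjusted p = 3.8e-09). *GPT2* (*At1g61800*), a glucose-phosphate transporter of the plastid envelope, fell by 1.14 on the log2 scale (1.8e-07) and *STP13* (*At5g26340*), a hexose transporter, by 1.12 (1.2e-07). Of 9 measured genes 7 were lower and 1 higher, with a median of -0.85, and of the 3 named by the annotation 2 were lower. *BAM1* in the double mutant did not differ detectably from Ws-2 (0.04, adjusted p = 0.85), and *bri1-5* alone had no detectable effect on it (-0.02, adjusted p = 0.91). *FER1* (*At5g01600*), the iron store protein ferritin, had 10.12, 10.21 and 10.12 in the double mutant and 11.20, 11.61 and 11.42 in *phyB-77*, a fall of -1.26 (7.1e-07). *VSP1* (*At5g24780*), a jasmonate-induced storage protein measured on a probe set shared by similar transcripts, fell by 1.29 (1.0e-06). Of 4 measured jasmonate genes 2 were lower and 1 higher, and of 4 measured genes of nutrient uptake, which include *FER1*, 1 was lower and 2 higher. Each list was thus called at 75.0%, against 45.0%. Without *phyB-77 bri1-5* replicate 2 only 1 jasmonate gene was lower and no uptake gene was higher. The lignin enzymes *CAD5* (*At4g34230*) and *PAL4* (*At3g10340*) fell by 0.61 (3.1e-04) and by 0.55 (8.8e-05), and of 5 measured lignin genes 4 were lower and none was higher.

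Several genes were high in the double mutant and low in the other 3 genotypes. *At4g27652*, *At4g27654* and *At4g27657* are successive coding genes in the RefSeq order and have no described function in the tables used. *At4g27652* had values of 8.89, 9.07 and 9.02 in *phyB-77 bri1-5* and 6.11, 6.18 and 6.33 in *phyB-77*. *At4g27654* had 6.70, 6.51 and 6.60 in the double mutant and 3.97, 3.71 and 3.66 in *phyB-77*. *At4g27657* had 7.76, 7.84 and 7.98 in the double mutant and 5.07, 5.58 and 5.49 in *phyB-77*. All 3 were high on each double-mutant array, and the log2 fold changes were 2.79, 2.82 and 2.48 (adjusted p of 4.0e-11, 4.9e-11 and 1.8e-10). In *bri1-5* against Ws-2 they differed by 0.06, 0.17 and -0.21 (adjusted p of 0.26 to 0.8), and the interactions of 2.73, 2.65 and 2.69 were the largest positive ones among named genes. *At2g12050* behaved alike, with 6.95, 6.91 and 6.95 in the double mutant and 4.28, 4.24 and 4.44 in *phyB-77*, a rise of 2.62 (1.1e-11) on a probe set shared by similar transcripts.

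The cold-response factors *CBF1* and *CBF2* were also highest in the double mutant. *CBF1* (*At4g25490*) had values of 6.48, 6.56 and 6.57 in the double mutant and 4.34, 4.01 and 4.02 in *phyB-77*. *CBF2* (*At4g25470*) had 7.96, 7.99 and 7.81 in the double mutant and 5.64, 5.46 and 5.37 in *phyB-77*. They rose by 2.41 (adjusted p = 2.9e-11) and 2.43 (8.0e-11), and since the 2 genes are similar in sequence, cross-hybridization between them was not tested. In Ws-2 *bri1-5* raised *CBF2* by 0.93 (adjusted p = 1.0e-05), and *CBF1* differed by 0.29 (0.058). *ZAT12* (*At5g59820*), a zinc finger protein of the stress response, rose by 1.38 (2.5e-09). Of 8 measured genes of touch and wounding response 5 were higher and 1 lower, with a median of 1.16, and of the 2 named by the annotation 1 was higher and 1 lower. Genes further along the cold response did not move as a block. *COR15B* (*At2g42530*), a chloroplast cryoprotectant, had 7.31, 7.14 and 7.25 in the double mutant and 5.86, 6.01 and 5.71 in *phyB-77*, a rise of 1.37 (1.2e-08), whereas *COR47* (*At1g20440*), a dehydrin, fell by 0.70 on the log2 scale (3.0e-04) like *RD29A*. Both were named after their values were seen. Heat shock genes were divided too. *HSP70* (*At3g12580*), a cytosolic chaperone, had 9.03, 9.09 and 8.96 in the double mutant and 11.06, 10.62 and 10.80 in *phyB-77*, a fall of -1.80 (2.7e-09), and *HSP90.1* (*At5g52640*) fell by 0.74 (2.4e-05). *HSP17.6II* (*At5g12020*), a small heat shock protein, rose by 1.1 (7.0e-06). Of 10 measured heat shock genes 2 were higher, 3 lower and 5 not called.

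**Figure D5:**
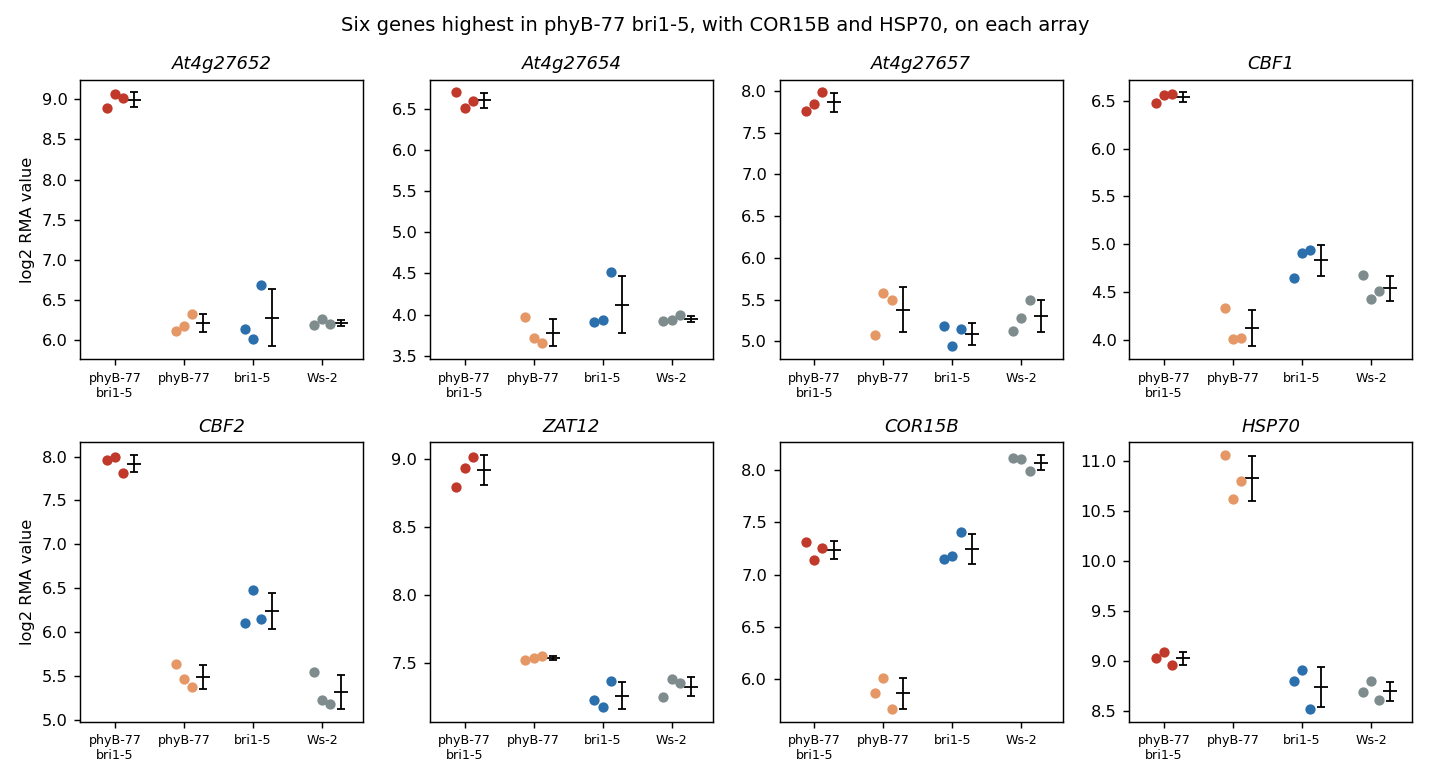
Log2 RMA values of 8 genes, with 3 arrays per genotype as points and the mean with its standard deviation as a black bar, each gene on its own y axis. *At4g27652*, *At4g27654*, *At4g27657*, *CBF1*, *CBF2* and *ZAT12* are highest on the 3 double-mutant arrays, *COR15B* is lowest in *phyB-77*, and *HSP70* is highest in *phyB-77*.

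Some of the genes for which *bri1-5* acted most differently in the 2 backgrounds changed little or in the opposite direction here. *At4g15620*, a gene of unknown function, had values of 4.49, 3.97 and 4.18 in *phyB-77 bri1-5* and 4.27, 4.53 and 4.51 in *phyB-77*. The groups overlapped (-0.22, adjusted p = 0.2), while *bri1-5* differed from Ws-2 by 4.41 (adjusted p = 2.6e-14). *ABCF5* (*At5g64840*), an ABC protein, differed by -0.30 (adjusted p = 0.12) in the *phyB-77* background, with a call without *phyB-77* replicate 1 (-0.47, adjusted p = 0.0092), and by 2.46 in Ws-2. *LEA76* (*At3g15670*), a late embryogenesis protein, differed by -0.13 (adjusted p = 0.42) and by 2.50. *DAA1* (*At1g64110*), an ATPase, had 6.43, 6.40 and 6.49 in the double mutant and 8.29, 7.91 and 7.92 in *phyB-77*. It fell by 1.60 on the log2 scale (2.7e-09), whereas *bri1-5* raised it by 1.79 in Ws-2 (6.0e-10). *SLAH1* (*At1g62280*), a homologue of an anion channel of guard cells, had 6.42, 6.66 and 6.76 in the double mutant and 5.01, 5.26 and 5.22 in *phyB-77*, a rise of 1.45 (5.8e-08), whereas *bri1-5* lowered it by -0.86 in Ws-2 (2.3e-05).

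Markers of shoot and vascular tissue were also measured. Of 6 measured shoot markers, which include leaf and stomatal lineage factors, 2 were lower and none was higher, and their mean was 6.91 to 6.99 on the double-mutant arrays and 7.17 to 7.36 on the *phyB-77* arrays. The count was 1 without *phyB-77 bri1-5* replicate 2 or 3 and 4 without *bri1-5* replicate 1. Of 5 measured vascular markers 1 was lower and none was higher, with a mean of 7.74 to 7.77 in the double mutant and 7.87 to 8.04 in *phyB-77*. The part of tissue proportions in the gene values was not tested. The 4 measured genes of the cell cycle, of 24 listed, had log2 fold changes of -0.27 to 0.19. The 4 of cellulose synthesis, of 14 listed, had -0.29 to -0.09, and all of these missed the threshold.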

How the data were processed

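RNA from whole seedlings of 4 genotypes was measured on 12 Affymetrix ATH1 arrays, 3 per genotype. The deposited values are log2 signals that the authors obtained with RMA, which the submitters' processing notes name without a version, and these values were used with no further normalization. The labels and methods give 7 days in continuous red light, and a legend of the study gives 5 days. The deposited table held 22810 probe sets, of which 64 controls were left out. A linear model with a mean for each genotype was fitted to the 12 arrays in limma 3.58.1 under R 4.3.3 (residual degrees of freedom 8, with 9.85 added by the prior). Contrasts were *phyB-77 bri1-5* against *phyB-77*, *bri1-5* against Ws-2 and the difference between these effects (the interaction). The first pair of contrasts shares no arrays. *phyB-77* and the double mutant were also each set against Ws-2 with the same arrays. The test is two-sided. The number of arrays limits the precision, and the standard error of the main log2 fold change had a median of 0.1 and reached 0.27. No detection calls were used.

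The platform annotation named 1 gene for 13513 probe sets and several for 503. The study's tables, which were selected on the same arrays, named 1299 more and left 7431 unnamed. The fold changes and p-values in those tables were not used. Gene order and family names came from the RefSeq annotation. Promoter and protein sequences were not analysed here.

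The members and gene lists were chosen with earlier results of these data known. Named genes were the 12 largest changes in each direction without overlap between the groups, the 6 largest interactions in each direction, up to 3 genes per list by adjusted p, and the genes the study describes. *EXPA7*, *RHD2*, *COW1*, *PRP1*, *COR15B*, *COR47*, *psaA* and the lists made from RefSeq family names were added after their values were seen. *GASA1*, *GASA4*, *PIF3* and *PIF5* were also added then, to complete their lists, and are not among the 94 named genes counted below. Alternatives were median centring, quantile normalization, the dimmest 40% of probe sets left out, an adjusted p under 0.05, a change above 1.5-fold, array weights, robust estimation with a trend of the variance, a replicate block, a fit to just the 6 arrays compared, 1 probe set per gene and each array left out in turn. The fit was tested on simulated data. Tables were made with Python 3.11.15 and pandas 2.3.3, and figures with matplotlib 3.10.9.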

Additional observations from a re-analysis of the deposited data

Results flagged for a closer look

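Of the 94 named genes, 66 differed between the backgrounds in their response to *bri1-5*. The values below are interactions, the log2 effect in *phyB-77* minus that in Ws-2, and a gene is listed where limma's adjusted p was under 0.01. Over all probe sets 13.8% passed this test, and the named genes were partly chosen for it.

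Among wall and root hair genes that were raised more in the *phyB-77* background, the interaction was 1.80 for *RHS13*, 1.71 for *EXT13*, 1.62 for *ADF11*, 1.53 for *PRP3*, 1.37 for *AGP3*, 1.14 for *PRX2*, 0.86 for *PRP1* and 0.82 for *EXPA18*. It was 1.24 for *XTH6*, 1.03 for *XTH12* and 0.86 for *XTH13*. *At2g37030* had 1.56 and *At5g18600* had 1.44, and the BR-response factors *BEE3* and *PRE3* had 0.89 and 0.66. All 15 of these genes were also raised by *bri1-5* in Ws-2.

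Interactions were 2.73 for *At4g27652*, 2.69 for *At4g27657*, 2.65 for *At4g27654*, 2.58 for *At2g12050*, 2.13 for *CBF1*, 1.5 for *CBF2*, 1.45 for *ZAT12* and 1.07 for *HSP17.6II*. Only *CBF2* of these 8 was called for *bri1-5* against Ws-2 (0.93, adjusted p = 1.0e-05). *COR15B* (2.20) and *SLAH1* (2.31) were raised in *phyB-77* and lowered in Ws-2, and *PSAN* had 1.06.

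Other genes were lowered in *phyB-77* and, in Ws-2, lowered less, raised or not called. They included the flavonoid genes *TT19* (-2.52), *F3H* (-2.35), *At4g14090* (-2.35), *PAP1* (-2.18) and *DFR* (-2.08), of which *PAP1* was also lowered in Ws-2 (-0.92, adjusted p = 1.0e-05). *ELIP2* had -2.79, *ELIP1* -2.20 and *PORA* -1.36, and the lipid genes *LTP4*, *CER1* and *KCS2* had -2.82, -1.47 and -1.30. Hormone genes were *GA3OX1* at -1.73, *GA2OX1* at -1.20, *GA2OX2* at -0.53, *RD20* at -1.34, *RD29B* at -1.34 and *RD29A* at -1.16. The light-signalling genes were *PIF1* at -1.58, *HYH* at -1.17 and *HY5* at -0.62, and the clock gene *GI* had -0.86. *HSP70* had -1.85, *HSP90.1* -1.0, *COR47* -0.94, *BAM1* -1.38, *GPT2* -1.16 and *EXPA4* -0.72.

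Genes that *bri1-5* raised in Ws-2 and not in *phyB-77* had -4.64 for *At4g15620*, -3.39 for *DAA1*, -2.76 for *ABCF5* and -2.62 for *LEA76*. Raised in Ws-2 more than in *phyB-77* were *CYP85A2* (-1.73), *rpl16* (-1.16), *ACS11* (-1.10), *rpl14* (-0.92), *CPD* (-0.66) and *RHD2* (-0.53). Lowered in Ws-2 more than in *phyB-77* were *CYP96A15* (2.43), *VSP1* (0.82) and *TIP3;2* (0.76).

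A total of 7 of the 66 interactions were lost when 1 array was left out. *RHD2* was lost without any one of the *phyB-77 bri1-5* or *phyB-77* arrays, *bri1-5* replicate 3 or Ws-2 replicate 1 or 3 (-0.44 to -0.58), and also with median-centred or quantile-normalized arrays (-0.42 and -0.43). *GA2OX2* was lost without any one of the *phyB-77 bri1-5* arrays, *phyB-77* replicate 2 or 3, *bri1-5* replicate 2 or Ws-2 replicate 2 or 3 (-0.44 to -0.55), and likewise under both scalings (-0.43 each). *PRE3* was lost without any one of the *phyB-77 bri1-5* arrays, *phyB-77* replicate 2 or 3 or Ws-2 replicate 1 or 3 (0.59 to 0.66). *HY5* was lost without *phyB-77 bri1-5* replicate 2, *bri1-5* replicate 1 or Ws-2 replicate 3 (-0.52 to -0.57) and under both scalings (-0.52 and -0.50). *VSP1* was lost without *phyB-77 bri1-5* replicate 2, *bri1-5* replicate 1 or Ws-2 replicate 2 or 3 (0.76 to 0.81). *rpl14* was lost without *phyB-77 bri1-5* replicate 2, *phyB-77* replicate 2 or 3 or Ws-2 replicate 1 or 3 (-0.79 to -0.88), and *TIP3;2* without *phyB-77 bri1-5* replicate 1 (0.70).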

How the results depend on the processing

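Of 3628 probe sets called in *phyB-77 bri1-5* against *phyB-77* (1465 higher and 2163 lower), an adjusted p under 0.05 gave 5716 (2204 and 3512) and a change above 1.5-fold gave 1705 (766 and 939). With 1 probe set per gene 1373 were lower, where fewer probe sets were tested. Array weights gave 5172, and the other settings, apart from leaving out an array, gave 3454 to 4048 where all probe sets were tested. The interaction was called for 3128 probe sets and for 5140 at an adjusted p under 0.05. Of the gene lists, 180 genes were called and 119 changed by more than 1.5-fold. With 1 array left out, 2463 to 4098 probe sets were called, 1056 to 1642 higher and 1407 to 2456 lower, the lowest counts being without *phyB-77 bri1-5* replicate 3. The interaction was then called for 2305 to 3314 probe sets and 149 to 193 list genes were called, and 85 to 89 of the 89 called named genes were called. The share of calls that were higher was 40.4%, against 53.9% with median-centred arrays and 49.2% after quantile normalization, and the median log2 fold change over all probe sets was -0.039, 0.028 and -0.004 under these scalings. No named gene changed sign with a call under any of the 22 settings. In this comparison 9 named genes changed their call under some setting, 6 of them when 1 array was left out. Genes whose probe sets were absent from a fit are not counted among these 9. With the dimmest 40% of probe sets left out, 81 of the 89 named calls remained, since the others were too dim to be tested there.

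The replicate numbers in the titles did not pair the arrays, since same-numbered arrays had deviations correlated at 0.0631, -0.025 and 0.04. With the replicate number as a block 3486 probe sets were called (1428 higher and 2058 lower), and 2981 in the interaction. The block left all 89 named calls of this comparison in place and ended the interaction calls of *GA2OX2* (adjusted p = 0.013) and *RHD2* (0.015).

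Signal near the bottom of the scale, where the lowest value was 2.36, carries no call of presence here, so folds of dim genes such as *At2g37030* and *EXT13* rest on values close to that limit. Probe sets shared by similar transcripts and the similar neighbouring genes named above may read more than 1 gene.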
